A study of Homo sapiens with 6 samples.

Results

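The genes of polyamine synthesis and of its antizyme control were followed across a ribosome profiling series in HEK293T, an established line of human embryonic kidney origin that expresses the SV40 large T antigen. The set holds 10 of the 60420 genes in the table and was chosen by name: ODC1, AMD1, SRM and SMS of synthesis, OAZ1, OAZ2 and AZIN1 of the antizyme circuit, and SAT1, SMOX and PAOX of breakdown and export. It was divided into 5 messages known for control by an upstream open reading frame (uORF) or a frameshift, which are AMD1, AZIN1, OAZ1, OAZ2 and SAT1, and 5 others, which are ODC1, SRM, SMS, SMOX and PAOX. Genes with a mean of at least 5 TPM (a transcript's length-scaled share of its library) over the 6 libraries were tested. Of the 10 genes, 9 passed; PAOX lay just inside the limit with a mean of 5.76 TPM, and SMOX just outside it with 4.29 TPM.

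Putrescine, spermidine and spermine are small polycations that bind RNA and are needed for growth, and cells hold their levels within narrow limits. ODC1 makes putrescine, and AMD1 supplies the aminopropyl groups that SRM and SMS add to make spermidine and spermine. Much of the control is translational: polyamines promote the frameshift that completes antizyme, antizyme sends ODC1 to the proteasome, and AZIN1, an inactive relative of ODC1, binds antizyme in its place.

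The cells had received an inhibitor of the arginine methyltransferase PRMT1, an inhibitor of PRMT4 (also called CARM1), or the vehicle DMSO. Compound, dose and time are not named in the labels. For each treatment there was 1 input library, used here as the level of RNA, and 1 library of the fragments that ribosomes protect from RNase I (footprints), which makes 6 libraries with no replicates. Every library, the inputs included, is described in the labels as ribosome-protected RNA, and the sources used here do not say how the inputs were prepared. No difference below has a replicate check, and no p-value was computed. In bulk libraries such as these, a change in the make-up of the culture and a change of RNA per cell cannot be told apart. Among genes expected in this line, VIM had 104.0 to 208.1 TPM and KRT18 31.5 to 58.2 TPM, while KRT8 had 3.97 to 8.47 TPM. Of the neuronal filament genes this line is known for, NEFL had 1.5 to 7.0 TPM, INA 2.46 to 3.68 TPM and NEFM 0.09 to 1.97 TPM, and PAX2, a kidney gene, had 0.26 to 1.15 TPM. Markers of blood, liver and T cells (HBB, ALB, PTPRC and CD3E) did not exceed 0.03 TPM. Of the fibroblast collagens, COL1A2 did not exceed 0.02 TPM and COL1A1 had 1.97 to 3.82 TPM. Protein-coding genes took 38.7%, 33.4% and 45.7% of the TPM in the inputs labelled PRMT1 inhibitor, PRMT4 inhibitor and DMSO, and 62.3%, 70.6% and 74.3% in the footprints in the same order.

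The inhibitor labels of the inputs and footprints go against each other. The difference between the PRMT1 and the PRMT4 inhibitor label in the inputs was set against the same difference in the footprints, which share no library. Over 8117 tested protein-coding genes Pearson's r was -0.42 and Spearman's rho -0.41, and 64.1% of genes had opposite signs in these differences. Of the 9 tested polyamine genes, 6 had opposite signs. AMD1 stood out with 0.80 in the inputs and -0.28 in the footprints on the log2 scale, and SMS with 0.58 and -0.20. Libraries are therefore named by their labels. Translation efficiency, the footprint value over the input value, is given with the input of the same label, with the input of the other inhibitor label (crossed), and as the average of both inhibitors, which does not depend on which input belongs to which footprint.

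**Figure D1:**
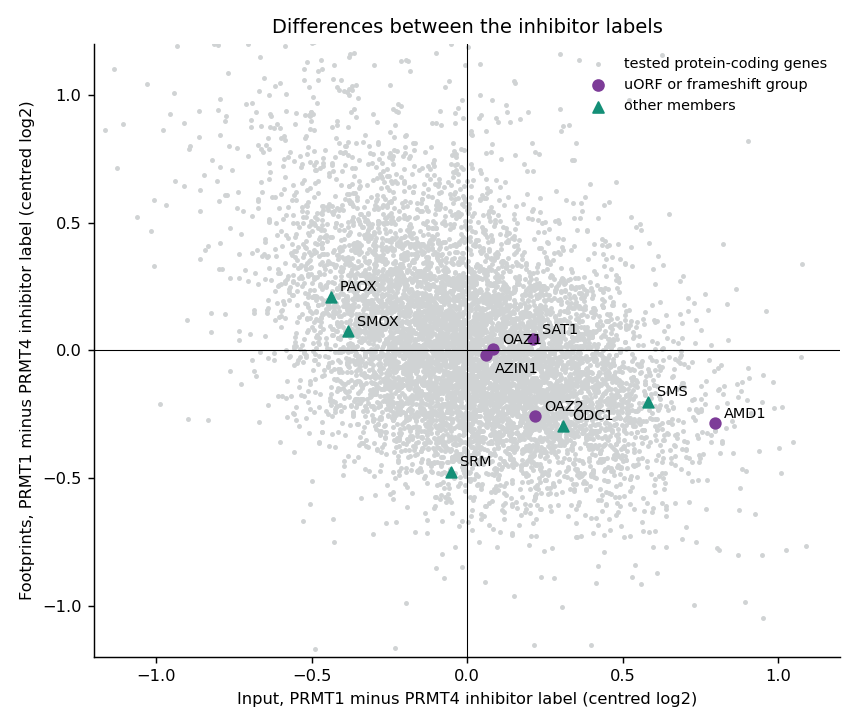
Difference between the library labelled PRMT1 inhibitor and the library labelled PRMT4 inhibitor in the inputs (x axis) and in the footprints (y axis), in centred log2 units, for tested protein-coding genes (grey) and the 10 polyamine genes (coloured); 71 genes lie outside the axis limit of 1.2. AMD1, at 0.80 and -0.28, lies farthest to the right of the 10, and SRM, at -0.05 and -0.48, lowest.

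The antizyme messages carry the control element in their coding sequence. In the GENCODE release 29 transcripts (build GRCh38), the main reading frame of each antizyme gene is written with 1 base left out, the first base of an in-frame stop codon. That base lies at chr19:2271443 on the plus strand for OAZ1 and at chr15:64691515 on the minus strand for OAZ2. The stop codon, in capitals below, lies within the coding exons of both, and the sequences are shown because only ribosomes that shift frame at it make a complete antizyme.

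OAZ1: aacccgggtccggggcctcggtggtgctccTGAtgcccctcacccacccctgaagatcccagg

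OAZ2: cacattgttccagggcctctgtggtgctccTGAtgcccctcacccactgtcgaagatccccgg

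The windows matched at 51 of 63 bases, with 10 identical bases just before the stop and 14 just after it. In OAZ1, 68 codons precede the stop and 160 codons follow the shift. In OAZ2 the corresponding lengths are 32 and 157 codons. A gene-level TPM sums the reads of both frames, so shifted and unshifted ribosomes could not be told apart in these data.

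AMD1 carries a short uORF in its 5′ untranslated region, at which polyamines are known to stall ribosomes. It lies at chr6:110874796-110874816 on the plus strand (GRCh38), begins 26 bases from the transcript start, holds 6 codons before its stop, and ends 289 bases upstream of the main start codon. Its start and stop codons are in capitals.

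AMD1 uORF: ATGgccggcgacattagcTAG

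Upstream AUG codons were counted in the annotated 5′ untranslated region of 1 transcript a gene. AZIN1 held 6 in 1164 bases. OAZ2 and SAT1 held 2 each, in 233 and 179 bases, AMD1 held the 1 printed above in 336 bases, and OAZ1 held none in 79 bases. Among the other genes, ODC1 held 2 in 511 bases and SMS 1 in 252 bases, while SRM, SMOX and PAOX held none. The search was for ATG in any frame on the sense strand. Of 8086 tested protein-coding genes with a usable coding transcript, 51.5% held at least 1. A transcript without an annotated 5′ untranslated region was counted as holding none.

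Levels were compared between genes as TPM, which is scaled by length. OAZ1 had the highest level of the 10 in every input and footprint library, and ODC1 the next highest in every one. SMOX and PAOX had the lowest levels in all 6 libraries, and SAT1 came just above them. Between them, SRM lay above and SMS below AZIN1, AMD1 and OAZ2 in all 6 libraries. The order of AZIN1, AMD1 and OAZ2 differed between libraries, and without replicates no order of neighbours can be judged. The 10 genes together had 1147, 886 and 1344 TPM in the inputs labelled PRMT1 inhibitor, PRMT4 inhibitor and DMSO. In footprints the sums were 984, 1226 and 1136 TPM in the same order. The PRMT4-labelled input had the lowest sum of the inputs and the PRMT4-labelled footprints the highest sum of the footprints.

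**Figure D2:**
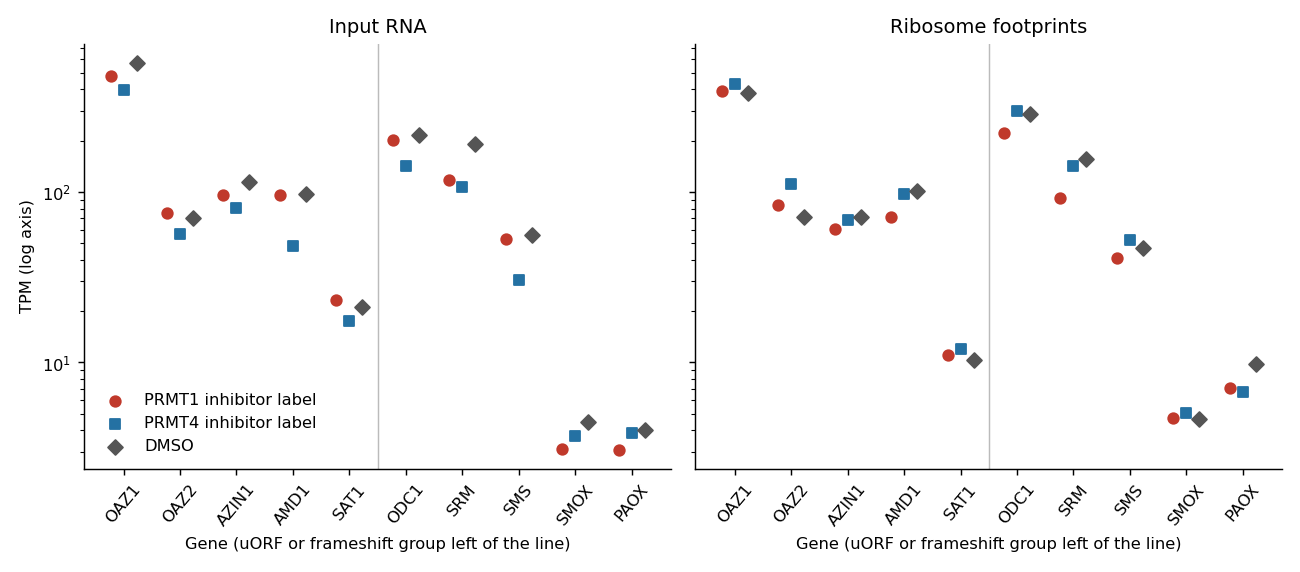
TPM of the 10 genes (log axis) in the inputs (left) and footprints (right), with 1 point per library; the uORF or frameshift messages stand left of the grey line. OAZ1 lies highest in every library, and the PRMT4-labelled input (squares) lies below the PRMT1-labelled input for every gene except SMOX and PAOX. The same holds without centring for 6557 of the 9040 tested genes.

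In the comparisons with DMSO, a ratio is log2((TPM + 1) / (TPM + 1)), inhibitor over DMSO, centred on the median of all 9040 tested genes. Before centring that median was -0.16 for the PRMT1-labelled input, -0.37 for the PRMT4-labelled input, -0.15 and -0.01 for the footprints of the PRMT1 and PRMT4 label, and 0.02 and 0.37 for translation efficiency. The centred ratios are thus relative to the median gene, and small ones can change sign without centring. A gene counts as past 2-fold at 1 or above, or at -1 or below. None of the 9 tested polyamine genes was past 2-fold in any comparison with DMSO. The share of all tested genes past 2-fold was 0.819% in the PRMT1-labelled and 2.44% in the PRMT4-labelled input, 3.83% and 0.896% in the footprints of the PRMT1 and PRMT4 label, and 4.12% and 2.94% in efficiency with the input of the same label. With crossed inputs it was 3.24% for the PRMT1-labelled and 1.52% for the PRMT4-labelled footprints. Averaged over both inhibitors it was 0.94% in input, 1.88% in footprints and 1.57% in efficiency. Most genes past 2-fold in those comparisons were not annotated as protein-coding: among protein-coding genes the averaged shares were 0.0616% in input, 0.185% in footprints and 0.16% in efficiency. A count of 0 of 9 is near all of these backgrounds.

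Relative to the median gene, the antizyme messages had higher translation efficiency in the inhibitor libraries than in DMSO, whichever input was used. Both pairings use the same inhibitor and DMSO libraries, so they are not separate checks. Without centring, 7405 of the 9040 tested genes had an averaged efficiency ratio above 0. OAZ1 (ENSG00000104904.12_4), the main antizyme, had 477.4 TPM in the PRMT1-labelled input and 395.0 TPM in the PRMT4-labelled input, against 569.4 TPM in the DMSO input. Its footprints were 390.3 TPM under the PRMT1 label and 430.5 TPM under the PRMT4 label, against 379.9 TPM in DMSO. The inhibitor inputs were thus below DMSO and the inhibitor footprints above it. Most genes were low in these inputs: without centring, 7049 and 7748 of the 9040 tested genes were below DMSO under the PRMT1 and PRMT4 label. The centred input ratios of OAZ1 were -0.09 and -0.16, and both changed sign when a trend on mean level was removed. The efficiency ratio of OAZ1 was 0.28 for the PRMT1 and 0.33 for the PRMT4 label, and 0.33 and 0.27 with crossed inputs. The average was 0.30, and 92.5% of the tested protein-coding genes had a lower average. The footprint ratio was 0.18 for the PRMT1 and 0.19 for the PRMT4 label.

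OAZ2 (ENSG00000180304.14_3), a second antizyme, had 75.2 and 56.5 TPM in the inputs labelled PRMT1 and PRMT4 inhibitor, against 70.0 TPM in the DMSO input. Its footprints were 84.1 TPM under the PRMT1 label and 111.6 TPM under the PRMT4 label, against 71.6 TPM in DMSO. Both inhibitor footprint libraries were above DMSO, while the inputs lay on either side of it. The footprint ratio of OAZ2 was 0.38 for the PRMT1 label and 0.64 for the PRMT4 label, and 99.0% of the tested protein-coding genes had a lower ratio under the PRMT4 label. The efficiency ratio was 0.11 and 0.57 with inputs of the same label, 0.30 and 0.37 with crossed inputs, and 0.33 on average, with 94.3% of genes lower. For OAZ1 and OAZ2 the footprint and efficiency ratios kept their sign under all the alternative settings tried.

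Set against OAZ1 within the same library, OAZ2 stood at 0.215 of its TPM in the footprints labelled PRMT1 inhibitor and 0.259 in those labelled PRMT4 inhibitor, against 0.188 in DMSO. In the inputs the same ratio was 0.157 and 0.143 under the PRMT1 and PRMT4 label, against 0.123 in DMSO. OAZ2 was higher relative to OAZ1 in all 4 inhibitor libraries than in the DMSO library of the same kind. OAZ3, an antizyme of the testis, did not exceed 1.84 TPM.

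AZIN1 (ENSG00000155096.13_3), the antizyme inhibitor, lay close to the median gene in every comparison with DMSO. It had 96.2 and 80.9 TPM in the inputs labelled PRMT1 and PRMT4 inhibitor, against 114.6 TPM in the DMSO input. Its footprints were 60.9 and 68.4 TPM in the same order, against 71.1 TPM in DMSO. All 4 inhibitor values were below DMSO, but every centred ratio of AZIN1 lay between -0.13 and 0.07. In footprints OAZ1 stood at 6.41 times the TPM of AZIN1 under the PRMT1 label and 6.29 times under the PRMT4 label, against 5.34 times in DMSO. In the inputs the ratio was 4.96 and 4.88 under the PRMT1 and PRMT4 label, against 4.97 in DMSO. AZIN2, a second antizyme inhibitor, had 4.67 and 5.14 TPM in the inhibitor inputs, against 4.72 TPM in the DMSO input, and 5.53 and 6.75 TPM in the inhibitor footprints, against 4.92 TPM in DMSO.

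Of the synthesis genes, ODC1 (ENSG00000115758.12_3), which makes putrescine, had 201.9 TPM in the PRMT1-labelled input and 142.8 TPM in the PRMT4-labelled input, against 216.3 TPM in the DMSO input. Its footprints were 220.7 and 299.9 TPM in the same order, against 285.5 TPM in DMSO. The lowest input and the highest footprint value carried the same label. The efficiency ratio of ODC1 was -0.29 for the PRMT1 label and 0.29 for the PRMT4 label. With crossed inputs it was -0.01 and 0.01, so this difference between the inhibitors rested on the pairing of the libraries. OAZ1 stood at 1.77 times the TPM of ODC1 in the footprints labelled PRMT1 inhibitor and 1.44 times in those labelled PRMT4 inhibitor, against 1.33 times in DMSO. In the inputs it stood at 2.36 and 2.77 times, against 2.63 times in DMSO.

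AMD1 (ENSG00000123505.15_3), S-adenosylmethionine decarboxylase, carries the uORF printed above. It had 96.7 TPM in the PRMT1-labelled input and 48.3 TPM in the PRMT4-labelled input, against 97.5 TPM in the DMSO input. The PRMT4-labelled input stood apart, with a centred ratio of -0.63, and 1.82% of the tested protein-coding genes had a lower one. In footprints the order of the labels was the other way round, with 71.6 TPM under the PRMT1 label and 96.8 TPM under the PRMT4 label, against 101.0 TPM in DMSO. The efficiency ratio of AMD1 was -0.50 for the PRMT1 label and 0.57 for the PRMT4 label with inputs of the same label, and 0.27 and -0.21 with crossed inputs. Its direction for either inhibitor therefore depended on which input was used. The average over both inhibitors was 0.03.

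SRM (ENSG00000116649.9_3), spermidine synthase, had the lowest averaged input ratio of the 9 tested genes. It had 117.4 TPM in the PRMT1-labelled input and 106.6 TPM in the PRMT4-labelled input, against 190.6 TPM in the DMSO input. Its footprints were 92.3 and 142.5 TPM in the same order, against 155.5 TPM in DMSO. All 4 inhibitor libraries were below DMSO for SRM, as they were for AMD1, AZIN1 and PAOX. The input ratio of SRM was -0.54 for the PRMT1 and -0.47 for the PRMT4 label, and stayed below 0 under all the alternative settings tried. On average over both inhibitors it was -0.50, and 1.05% of the tested protein-coding genes had a lower average. The footprint ratio was -0.60 for the PRMT1 and -0.12 for the PRMT4 label. The average efficiency ratio was 0.13.

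SMS (ENSG00000102172.15_3), spermine synthase, had 52.9 and 30.6 TPM in the inputs labelled PRMT1 and PRMT4 inhibitor, against 56.0 TPM in the DMSO input. Its footprints were 40.9 TPM under the PRMT1 label and 52.4 TPM under the PRMT4 label, against 47.0 TPM in DMSO. The PRMT4-labelled input was the lowest for 8 of the 10 genes, SMS among them. Most genes were low there: without centring, 7748 of the 9040 tested genes were below DMSO in it. In 6557 of the 9040 it was below the PRMT1-labelled input, so the count of 8 is not particular to these genes. The efficiency ratio of SMS was -0.13 and 0.63 with inputs of the same label, 0.42 and 0.07 with crossed inputs, and 0.25 on average. Within the same library SMS stood at 0.444 of the TPM of SRM in footprints labelled PRMT1 inhibitor and 0.368 in those labelled PRMT4 inhibitor, against 0.302 in DMSO. In the inputs it stood at 0.451 and 0.287 under the PRMT1 and PRMT4 label, against 0.294 in DMSO.

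Of the breakdown genes, SAT1 (ENSG00000130066.16_2) acetylates spermidine and spermine for export or oxidation. It had 23.3 and 17.4 TPM in the inputs labelled PRMT1 and PRMT4 inhibitor, against 21.3 TPM in the DMSO input. Its footprints were 11.0 and 11.9 TPM in the same order, against 10.4 TPM in DMSO. The footprint ratio was 0.23 for the PRMT1 and 0.19 for the PRMT4 label, and the efficiency ratio was -0.06 and 0.09. SAT1 footprints were thus slightly above DMSO in both inhibitor libraries, and its efficiency ratio lay near that of the median gene.

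PAOX (ENSG00000148832.15_3), the oxidase of acetylated polyamines, had the lowest averaged efficiency ratio of the 9 tested genes. It had 3.08 and 3.85 TPM in the inputs labelled PRMT1 and PRMT4 inhibitor, against 4.02 TPM in the DMSO input. Its footprints were 7.10 and 6.75 TPM in the same order, against 9.78 TPM in DMSO. Both inhibitor footprint libraries lay below DMSO. All its inputs lay below the filter limit of 5 TPM, so PAOX passed only through its footprints, which were highest in DMSO. Its efficiency ratios are drawn from those same values. The efficiency ratio of PAOX was -0.13 and -0.80 with inputs of the same label, -0.60 and -0.34 with crossed inputs, and -0.47 on average, and 1.91% of the tested protein-coding genes had a lower average. At such levels the pseudocount understates a ratio, and the counting error is unknown because TPM keeps no depth. SMOX (ENSG00000088826.17_2), spermine oxidase, had 3.12 and 3.71 TPM in the inhibitor inputs, against 4.48 TPM in the DMSO input. Its footprints were 4.75 and 5.04 TPM under the PRMT1 and PRMT4 label, against 4.64 TPM in DMSO, so all 3 footprint values were close.

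**Figure D3:**
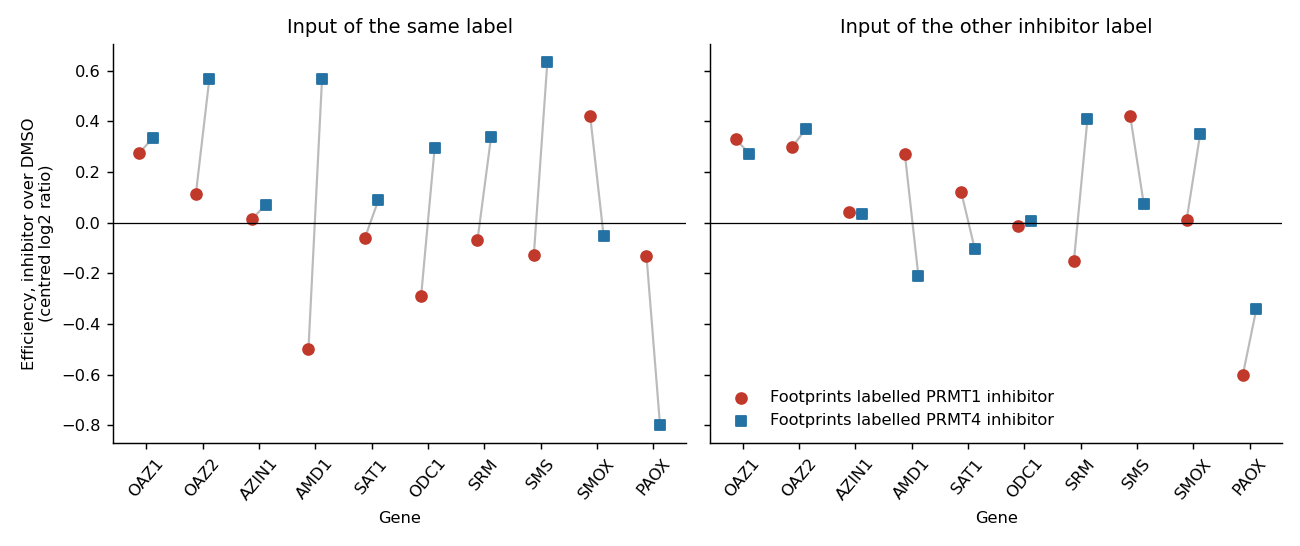
Translation efficiency, inhibitor over DMSO (centred log2 ratio), for the 10 genes, with footprints divided by the input of the same label (left) or of the other inhibitor label (right). OAZ1 and OAZ2 lie above 0 for both inhibitors in both panels and PAOX below 0, while AMD1 lies at -0.50 and 0.57 on the left and at 0.27 and -0.21 on the right.

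Taken as a set, the 9 tested genes had a median efficiency ratio of -0.07 for the PRMT1 label and 0.33 for the PRMT4 label, with 3 and 8 genes above 0. With crossed inputs the medians were 0.12 and 0.03, with 6 genes above 0 for each. Averaged over both inhibitors, the median was 0.04, with 7 of 9 above 0. The median of all tested genes is 0 in each comparison by the centring. The gap between the inhibitor labels was thus largest with inputs of the same label.

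The uORF or frameshift messages were then set against the others. In footprints, the 5 uORF or frameshift messages had a median ratio of 0.18 for the PRMT1 and 0.19 for the PRMT4 label, against -0.25 and -0.02 for the 4 others past the filter. The averaged footprint median was 0.18 for the uORF or frameshift messages and -0.22 for the others, a difference of 0.40. Under the alternative settings tried, that difference ran from 0.26 to 0.40. The 5 were not alike: OAZ1, OAZ2 and SAT1 had positive footprint ratios under both labels, while AMD1 and AZIN1 had negative ones, those of AZIN1 and that of AMD1 for the PRMT4 label being small. In the inputs, the median was 0.15 and -0.13 for the uORF or frameshift messages, against -0.04 and -0.35 for the others, under the PRMT1 and PRMT4 label. In averaged efficiency, the median was 0.04 for the uORF or frameshift messages, with 5 of 5 above 0 and values from 0.01 to 0.33, and 0.06 for the others, with 2 of 4 above 0. The difference of the medians was -0.03, small beside the spread within each group. PAOX, with an averaged footprint ratio of -0.37, passed the filter only through its footprints, which were highest in DMSO. Its part in the footprint and efficiency medians of the others therefore cannot be separated from the filter.

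With the settings used, the groups differed more in their efficiency in DMSO-treated cells. Baseline efficiency is the DMSO footprint over the DMSO input, as a centred log2 value. The median was -0.67 for the uORF or frameshift messages, all 5 of them below 0, against -0.01 for the 4 others. Without centring AMD1 and OAZ2 lay above 0. The difference of the medians was -0.66 with the settings used, and ran from -0.66 to -0.32 under the alternative settings tried. SAT1 had the lowest value, -1.06, and 15.9% of the tested protein-coding genes were lower. AZIN1 followed with -0.77 and OAZ1 with -0.67, with 23.3% and 26.0% of genes lower. AMD1 and OAZ2, at -0.04 and -0.06, lay at the median gene. Of the others, PAOX had 1.02 and ODC1 0.31, while SRM had -0.38 and SMS -0.34. PAOX passed the filter only through its footprints, so its high value and its part in the median of the others cannot be separated from the filter. SMOX, with similar inputs and lower footprints, did not pass and had -0.05. SAT1 and PAOX were past 2-fold, 2 of 9 genes, against 35.4% of all tested genes.

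In the inhibitor pairs with inputs of the same label, the medians were -0.54 for the uORF or frameshift messages and -0.22 for the others under the PRMT1 label. Under the PRMT4 label they were -0.34 and 0.25. These are the same genes, so the pairs are not a separate check on the difference in DMSO. In all tested protein-coding genes, the 4168 with at least 1 upstream AUG had a median baseline efficiency of -0.12, and the 3918 without one 0.13. The polyamine genes lay on either side. Of those with an upstream AUG, AZIN1, SAT1 and SMS lay below both medians, and AMD1 and OAZ2 between them. ODC1, also with upstream AUGs, lay above both with the settings used. Of the tested genes without one, SRM and OAZ1, which is grouped for its frameshift, lay below both medians and PAOX above both. The part of upstream AUGs in these values was not tested. The value of ODC1 fell below 0 when a trend on mean level was removed. It also did so with TPM rescaled over protein-coding genes without centring, where the median tested gene itself lay at -0.59. Footprints fall on coding sequence, and the sources used here do not say whether the TPM of footprint libraries was scaled by transcript or coding length; its part in the low value of AZIN1, with its long 5′ untranslated region, was not tested. The groups also hold few genes.

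**Figure D4:**
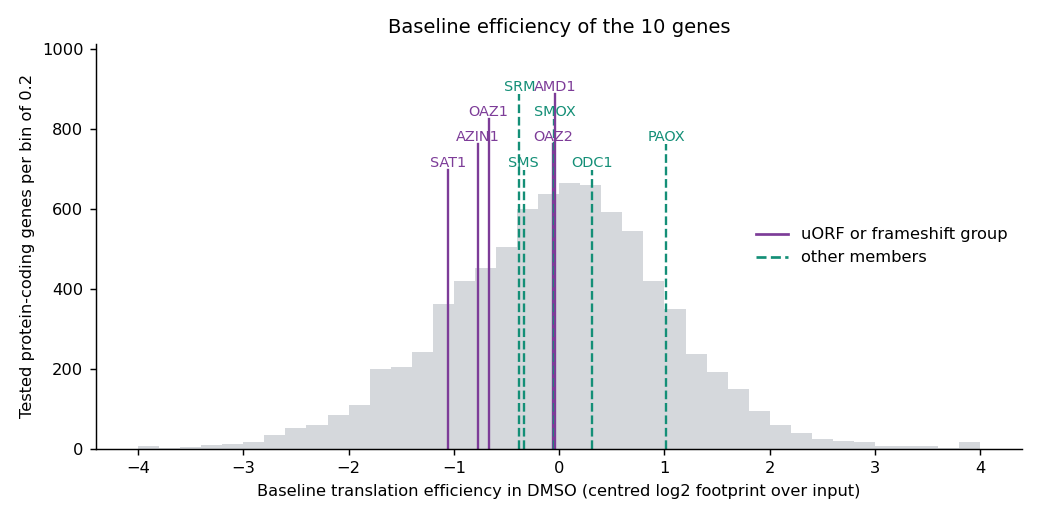
Baseline translation efficiency in DMSO (centred log2 of footprint over input) of the tested protein-coding genes (grey histogram, bins of 0.2), with lines for the 10 genes, solid for uORF or frameshift messages and dashed for the others; line height carries no value, and the end bins hold all more extreme values. The 5 solid lines lie between -1.06 (SAT1) and -0.04 (AMD1), and PAOX lies farthest to the right, at 1.02.

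Further genes of the pathway were taken from lists by function: 24 of 36 passed the filter. In the hypusine branch, spermidine modifies the translation factor EIF5A through DHPS. EIF5A had 405.8 and 344.4 TPM in the inputs labelled PRMT1 and PRMT4 inhibitor, against 608.4 TPM in the DMSO input, which gave centred ratios of -0.42 and -0.45. Its footprints were 1390.2 and 1782 TPM in the same order, against 1879 TPM in DMSO. All 4 inhibitor values of EIF5A were below DMSO, as were those of SRM, AMD1, AZIN1 and PAOX. Without centring, 7049 and 7748 of the 9040 tested genes were below DMSO in the inputs labelled PRMT1 and PRMT4 inhibitor. In footprints 5898 and 4607 were, in the same order. DHPS had an input ratio of -0.35 for the PRMT1 and -0.04 for the PRMT4 label, and a footprint ratio of 0.00 and -0.07.

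The methionine cycle and salvage genes supply the aminopropyl donor and recycle the by-product of SRM and SMS. All 11 passed the filter and none was past 2-fold in a comparison with DMSO. In the inputs, 8 of 11 lay below 0 for the PRMT1 and 10 of 11 for the PRMT4 label, with medians of -0.13 and -0.23. In footprints, 9 of 11 and 7 of 11 lay below 0, with medians of -0.34 and -0.25. The lowest averaged footprint ratios were those of methionine synthase, MTR, at -0.56 and of MRI1 at -0.43, and the highest were those of MAT2B at 0.11 and ADI1 at 0.03. MTAP, which cleaves methylthioadenosine, had the highest baseline efficiency of the list, 3.14. Of the ornithine and arginine supply genes, ARG2 had averaged input and footprint ratios of -0.34 and -0.44, OAT of -0.47 and -0.46, and ALDH18A1 of 0.08 and 0.13. ARG1 and OTC did not exceed 0.04 TPM.

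Of the 5 transport genes past the filter, 3 had input ratios above 0 for the PRMT1 label and 5 for the PRMT4 label, with medians of 0.07 and 0.30. The averaged input ratio lay above 0 in 5 of 5, with a median of 0.28, and without centring in 3 of 5, with a median of 0.02. SLC3A2, a chain of amino acid transporters linked to polyamine export, had 56.0 TPM in the PRMT1-labelled input and 78.8 TPM in the PRMT4-labelled input, against 52.1 TPM in the DMSO input. Its footprints were 96.5 and 60.7 TPM in the same order, against 57.9 TPM in DMSO, so the higher value lay under opposite labels in inputs and footprints. SLC7A1, a carrier of arginine and ornithine, was the only one of the 24 pathway genes past 2-fold in a comparison with DMSO, with an efficiency ratio of -1.01 for the PRMT4 label that was 0.02 with the crossed input. ATP13A3, a polyamine importer, had a footprint ratio of 0.95 for the PRMT1 and 0.03 for the PRMT4 label, from 5.21 and 2.60 TPM, against 2.55 TPM in DMSO.

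Other messages known for uORF or frameshift control, 11 of 12 past the filter, differed between the labels in the other direction. Their efficiency ratio lay above 0 in 10 of 11 for the PRMT1 label, with a median of 0.30, and below 0 in 10 of 11 for the PRMT4 label, with a median of -0.31. The polyamine genes had medians of -0.07 and 0.33. With crossed inputs the medians of the other messages were -0.02 and 0.03. DDIT3, a stress-induced transcription factor, was past 2-fold in footprints for the PRMT1 label at 1.37 and in efficiency at 1.01, and its efficiency was 0.44 with the crossed input. ATF4 had 0.65 and -0.73 in efficiency with inputs of the same label, and -0.12 and 0.03 with crossed inputs.

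For each polyamine gene with a mean of at least 20 TPM, the most alike protein-coding genes were found among 3600 candidates. Likeness was the Euclidean distance over 5 centred log2 values, which are the baseline efficiency and the input and footprint ratios of both labels. The nearest to OAZ1 were TTC3 at 0.152 and CHMP3 at 0.174, and to OAZ2 RNF5 at 0.265 and DCAF16 at 0.307. The nearest to AZIN1 were MAPK9 at 0.0595 and KAT7 at 0.142, and to ODC1 CFL2 at 0.0679 and PSMD12 at 0.0953. For AMD1 they were SRRM1 at 0.109 and VBP1 at 0.175, for SRM MRTO4 at 0.143 and DPCD at 0.274, and for SMS CDC42 at 0.116 and NDUFB3 at 0.138. OAZ2 had the most distant nearest gene of the 7. The median candidate lay 0.84 to 1.33 away.

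Processed copies of these genes could take some of their reads. The listed pseudogenes of AMD1, SRM, OAZ1 and SMS did not exceed 0.18 TPM, the highest being AMD1P3. For AZIN1-AS1, a gene named as antisense to AZIN1, no level was obtained here. The sources used here do not say whether the counting used strand, so whether some AZIN1 reads belong to it is unknown.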

How the data were processed

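The deposited table held the authors' TPM to 2 decimals, in a column for each library. Per the submitters' processing notes, the build was GRCh37.p13 and the tools were RSEM 1.2.22, STAR 2.4.2a, Bowtie 1.1.2 and cutadapt 1.18, with no role given. Depth is unknown, since TPM does not keep it, and neither a count test nor a counting interval was possible. Of 60461 identifiers, 41 Y pseudoautosomal copies, all at 0, were dropped. Symbols were matched for 55725 and gene types for 56157 in GENCODE release 29, whose build differs and which gave names, types and transcript sequences only. Ratios used a pseudocount of 1, a mean of at least 5 TPM, and centring on the median tested gene (pandas 2.3.3, numpy 2.4.6, scipy 1.17.1 and statsmodels 0.14.6 in Python 3.11.15), and were tested on simulated data. With 1 library per group there was no test; past 2-fold is a description of size. All 10 genes were named, with every listed gene past 2-fold or up to the 2 highest and 2 lowest of a list. The 10 genes and the lists were chosen with earlier results of these data known. DOHH and PECAM1 were not used here.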

Additional observations from a re-analysis of the deposited data

How the results depend on the processing

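No paired analysis was possible because each treatment had 1 library of each kind and no replicate numbers were shared. Alternatives were pseudocounts of 0.1 and 5, a mean TPM of at least 1, no filter on low values, no centring, TPM rescaled over protein-coding genes, removal of a lowess trend on mean level, and crossed inputs. Of 216 summary values under these alternatives, 209 stayed within 1.5-fold and 7 moved, and the cause was not tested. That width, 0.585 in log2, exceeds every median of the 9 tested genes given with the settings used. Such a median can therefore change sign and still count as staying. The set median changed sign in 3 of 7 alternatives for the PRMT1-labelled input ratio. It did so in 2 of 7 for the PRMT1-labelled and in 2 of 7 for the averaged footprint ratio. Without centring, 1 of 9 genes was past 2-fold in efficiency for the PRMT4 label, against 0, while 424 of the 9040 tested genes were, against 266. The count past 2-fold in baseline efficiency, 2 with the settings used, was 0 with a pseudocount of 5 (2263 of all 9040), 1 with the filter at a mean TPM of 1 (4944 of 13680), 1 with no filter (5452 of 36916), 1 without centring (3182 of 9040) and 4 with the lowess trend removed (2689 of 9040), against 3196 of 9040 with the settings used. The median baseline efficiency, -0.34 with the settings used, was -0.95 with TPM rescaled over protein-coding genes, a setting without centring in which the median tested gene itself lay at -0.59. It was 0.04 with the filter at a mean TPM of 1, which moves the centre of all genes and takes in SMOX. Of the values for single genes, 702 stayed within 1.5-fold and 18 moved: the efficiency of AMD1 with crossed inputs, and baseline values under rescaling or the lowess trend. Several small ratios changed sign without centring or with the trend removed, among them the averaged input ratios of OAZ1, OAZ2, SAT1, AZIN1 and ODC1. Depth is unknown, so the error of the low genes SAT1, SMOX and PAOX cannot be given.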
